A study of Mus musculus with 6 samples.

Results

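The suppressor of cytokine signalling (SOCS) family of the mouse comprises 8 genes, Cish and Socs1 to Socs7, and all 8 were read by the array. They were taken by name: every probe set that the platform annotation assigns to one of these symbols was used, which gave 24 of 45037 probe sets and 8 of the 18193 genes with a probe set. Socs2 was read by 6 probe sets, Socs4 and Socs7 by 4 each, Socs3 and Socs6 by 3 each, Socs5 by 2, and Cish and Socs1 by 1 each. The probe sets were taken by symbol alone, but the family itself was chosen with earlier results of these data known.

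SOCS proteins are feedback inhibitors of cytokine receptors that signal through Janus kinases (JAKs) and STAT transcription factors. A cytokine activates the kinases, the kinases activate STATs, and STATs switch on SOCS genes, whose products then damp the same receptors. Each family member has an SH2 domain, which binds phosphorylated tyrosines, and a carboxy-terminal SOCS box, which recruits elongins B and C and a cullin to mark bound proteins for degradation. SOCS1 and SOCS3 also carry a short region that blocks the kinase itself. IL-13, a type 2 cytokine of allergic airway disease, signals through a receptor made of the IL-4 receptor alpha chain and IL-13 receptor alpha 1, mainly to STAT6, and SOCS1 restrains this pathway.

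Whole lung RNA of adult BALB/c mice of 3 genotypes was hybridised to 6 Affymetrix whole-genome mouse arrays, 2 for each genotype. All mice, WT included, had received 2 to 3 µg of IL-13 into the trachea once a day for 7 days, and the lungs were collected 24 hours after the final dose. IL4R KO + SMP8-IL4R mice (called transgenic below) were IL4R -/- and carried, as +/-, a transgene in which the SMP8 promoter, described by the design text as specific to smooth muscle, drives the receptor. IL4R KO mice were IL4R -/- without the transgene, and WT mice had the intact receptor gene. Each array held a pool of RNA from 4 mice, called pool 1 and pool 2 as the labels number them. Nothing in the labels says that the pools of a genotype came from separate experiments, so p-values measure the spread between these pools. No lung without IL-13 was measured, so no value below shows an induction by IL-13.

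The values were log2 probe set intensities, on which a difference of 1 is a 2-fold change. Levels of different probe sets were used only to choose and filter probe sets and to call them high, bright or dim. They were not read as amounts of RNA of 1 gene against another. Markers of lung cells were high on every array, with mean log2 values of 13.64 to 13.73 for 6 alveolar type 2 genes and 12.13 to 12.25 for 8 endothelial genes. The brightest Il4ra probe set gave 9.98 and 9.84 in transgenic lungs, 9.35 and 9.55 in IL4R KO lungs and 9.64 and 9.81 in WT lungs. Probe set 1421034_a_at gave 8.94 and 8.80 in transgenic lungs, 8.92 and 8.93 in IL4R KO lungs and 9.23 and 9.29 in WT lungs. The dimmest, 1447858_x_at, gave 6.77 and 6.95 in transgenic lungs, 6.73 and 7.03 in IL4R KO lungs and 7.14 and 6.95 in WT lungs. Only the brightest was thus higher in transgenic than in IL4R KO pools, and both WT pools lay on top in 1421034_a_at. The 3 Il4ra probe sets cannot check the genotypes, because their position relative to the deleted part is unknown here. Single pools stood apart in other tissues' transcripts: the mean of 7 hepatocyte genes reached 9.97 in pool 1 of IL4R KO and 9.48 in pool 2 of WT, against 5.89 to 6.12 in the other 4 pools. Sex-linked transcripts also differed between the IL4R KO pools. The mean of 3 Y-linked genes was 3.72 in IL4R KO pool 2 and 7.50 to 8.31 elsewhere. The X-linked gene Xist was 7.93 in IL4R KO pool 1, 11.40 in IL4R KO pool 2 and 10.08 to 11.02 elsewhere. The part of the sex of the pooled mice in the family values was not tested. The mean of the neutrophil markers was high in pool 1 of both IL4R -/- genotypes, as given with Socs3 below.

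Promoter sequences of Cish, Socs1, Socs3 and Socs4 were found in the RefSeq table for GRCm38.p6. The 250 bases upstream of the start of Cish (chr9:107296409-107296658, plus strand), Socs1 (chr16:10785537-10785786, minus strand) and Socs3 (chr11:117969367-117969616, minus strand) are shown because these 3 genes carry the results below: Cish and Socs1 were lower in IL4R KO than in WT lungs, and Socs3 varied most between the pools of each IL4R -/- genotype. Each is written 5′ to 3′ on the gene's strand, and capitals mark the motif matches.
Cish: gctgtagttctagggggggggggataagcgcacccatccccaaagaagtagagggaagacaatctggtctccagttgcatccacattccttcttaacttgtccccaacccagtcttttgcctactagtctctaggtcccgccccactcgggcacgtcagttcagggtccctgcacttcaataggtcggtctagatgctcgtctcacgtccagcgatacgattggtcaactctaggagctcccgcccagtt
Socs1: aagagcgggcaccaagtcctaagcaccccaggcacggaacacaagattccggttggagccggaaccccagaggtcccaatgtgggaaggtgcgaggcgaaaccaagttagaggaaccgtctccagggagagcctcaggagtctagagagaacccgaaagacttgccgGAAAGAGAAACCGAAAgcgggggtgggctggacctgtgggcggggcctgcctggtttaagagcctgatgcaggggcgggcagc
Socs3: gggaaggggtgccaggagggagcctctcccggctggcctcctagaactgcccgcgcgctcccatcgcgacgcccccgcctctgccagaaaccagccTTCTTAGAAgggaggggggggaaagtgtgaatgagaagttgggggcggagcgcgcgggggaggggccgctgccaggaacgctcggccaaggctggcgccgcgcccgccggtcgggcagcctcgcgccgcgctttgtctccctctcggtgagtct
The motifs searched on both strands were TTCNNNGAA, the spacing bound by most STATs, TTCNNNNGAA, the spacing preferred by STAT6, and GAAANNGAAA, a pattern bound by interferon regulatory factors. Socs3 held 1 match to the STAT pattern, TTCTTAGAA, from 154 to 146 bases before its start, a pattern present in 7.02% of 32851 promoter windows of this length. Socs1 held 2 overlapping matches to the interferon regulatory factor pattern, GAAAGAGAAA from 83 to 74 and GAAACCGAAA from 77 to 68 bases before its start, a pattern present in 2.98% of windows. Neither the Cish nor the Socs4 window matched any of the motifs. None of the 4 family windows held TTCNNNNGAA, which was present in 5.85% of all windows. A match describes letters, not a bound site, and these windows leave out any more distant element.

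IL4R KO lungs were set against WT lungs to ask how family transcripts differed when the receptor was absent from every cell of a lung given IL-13. Of the 8 family genes, 2 were lower in IL4R KO lungs at an adjusted p under 0.05, Cish and Socs1, and none was higher. Among all 11861 genes tested the share passing was 4.7%, and 2.77% passed as lower. The median difference of the family was -0.14 and that of all genes tested 0.02. The values of the IL4R KO and WT pools did not overlap for 4 of the 8 members, Cish, Socs1, Socs2 and Socs5, all of which were lower in IL4R KO lungs. Such a separation was about as frequent among all genes tested, at 51.6%, and 22.5% showed it with the IL4R KO pools lower.

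Cish encodes CIS, a SOCS protein that is switched on by STAT5 and restrains signalling by IL-2 and growth hormone. Its probe set, 1448724_at, had log2 values of 9.32 and 9.35 in transgenic lungs, 9.58 and 9.18 in IL4R KO lungs, and 10.30 and 10.27 in WT lungs. Both WT pools lay above all 4 IL4R -/- pools, and the transgenic values lay within the range of the IL4R KO values. The difference of IL4R KO minus WT was -0.90 (SE 0.13, 95% interval -1.22 to -0.59, limma adjusted p = 0.0202), which is 1.87-fold lower in IL4R KO lungs. For transgenic minus WT it was -0.95 (SE 0.13, limma adjusted p = 0.0214), or 1.94-fold lower. Transgenic and IL4R KO lungs differed by -0.05, with an interval of -0.37 to 0.27 (limma adjusted p = 0.898). The values are thus compatible with a change of either sign, and the interval is not a limit of detection. Both comparisons against WT use the same 2 WT arrays. With the mean of the Y-linked genes as a covariate, IL4R KO minus WT was -0.74 for Cish (limma adjusted p = 0.00573). The call of IL4R KO against WT was lost with WT pool 1 (adjusted p = 0.174) or WT pool 2 (adjusted p = 0.152) left out, where 110 and 120 of all genes passed, and without either transgenic pool (adjusted p = 0.0570), while the difference stayed between -1.10 and -0.71 with any 1 array left out. The call of transgenic against WT was lost with any WT or transgenic pool left out (limma adjusted p between 0.139 and 0.198).

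Socs1 encodes the member that blocks JAKs most directly and restrains interferon-gamma and IL-4 receptor signalling. Its probe set, 1450446_a_at, had log2 values of 6.83 and 6.78 in transgenic lungs, 6.50 and 6.60 in IL4R KO lungs, and 7.37 and 7.21 in WT lungs. The 3 genotypes did not overlap: WT was highest, transgenic lungs came next and IL4R KO lungs were lowest. IL4R KO minus WT was -0.74 (SE 0.08, 95% interval -0.94 to -0.54, limma adjusted p = 0.00891), or 1.67-fold lower in IL4R KO lungs. Transgenic minus WT was -0.49 (SE 0.08, limma adjusted p = 0.0415), or 1.40-fold lower in transgenic lungs. Transgenic minus IL4R KO was 0.25 with an interval of 0.05 to 0.45, and it did not pass over all genes (limma adjusted p = 0.331).

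The Socs1 values lie around 7.10, the median of all values, so the probe set is not bright. It entered the gene table through the WT pools alone, the group where it was high, since a gene was tested if 2 of its arrays lay above that median. Over all 45037 probe sets without a filter, IL4R KO minus WT passed (limma adjusted p = 0.0154) and transgenic minus WT did not (adjusted p = 0.0724). Without WT pool 1 the adjusted p in the gene table was 0.0919 for IL4R KO minus WT, and for transgenic minus WT it lay between 0.150 and 0.295 with any WT or transgenic pool left out. In that probe set fit 2 of the 24 family probe sets passed in IL4R KO minus WT, those of Cish and Socs1, against 1.58% of all probe sets. Only that of Cish passed in transgenic minus WT, against 1.04% of all, and none passed in transgenic minus IL4R KO, against 0.0155% of all.

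**Figure D1:**
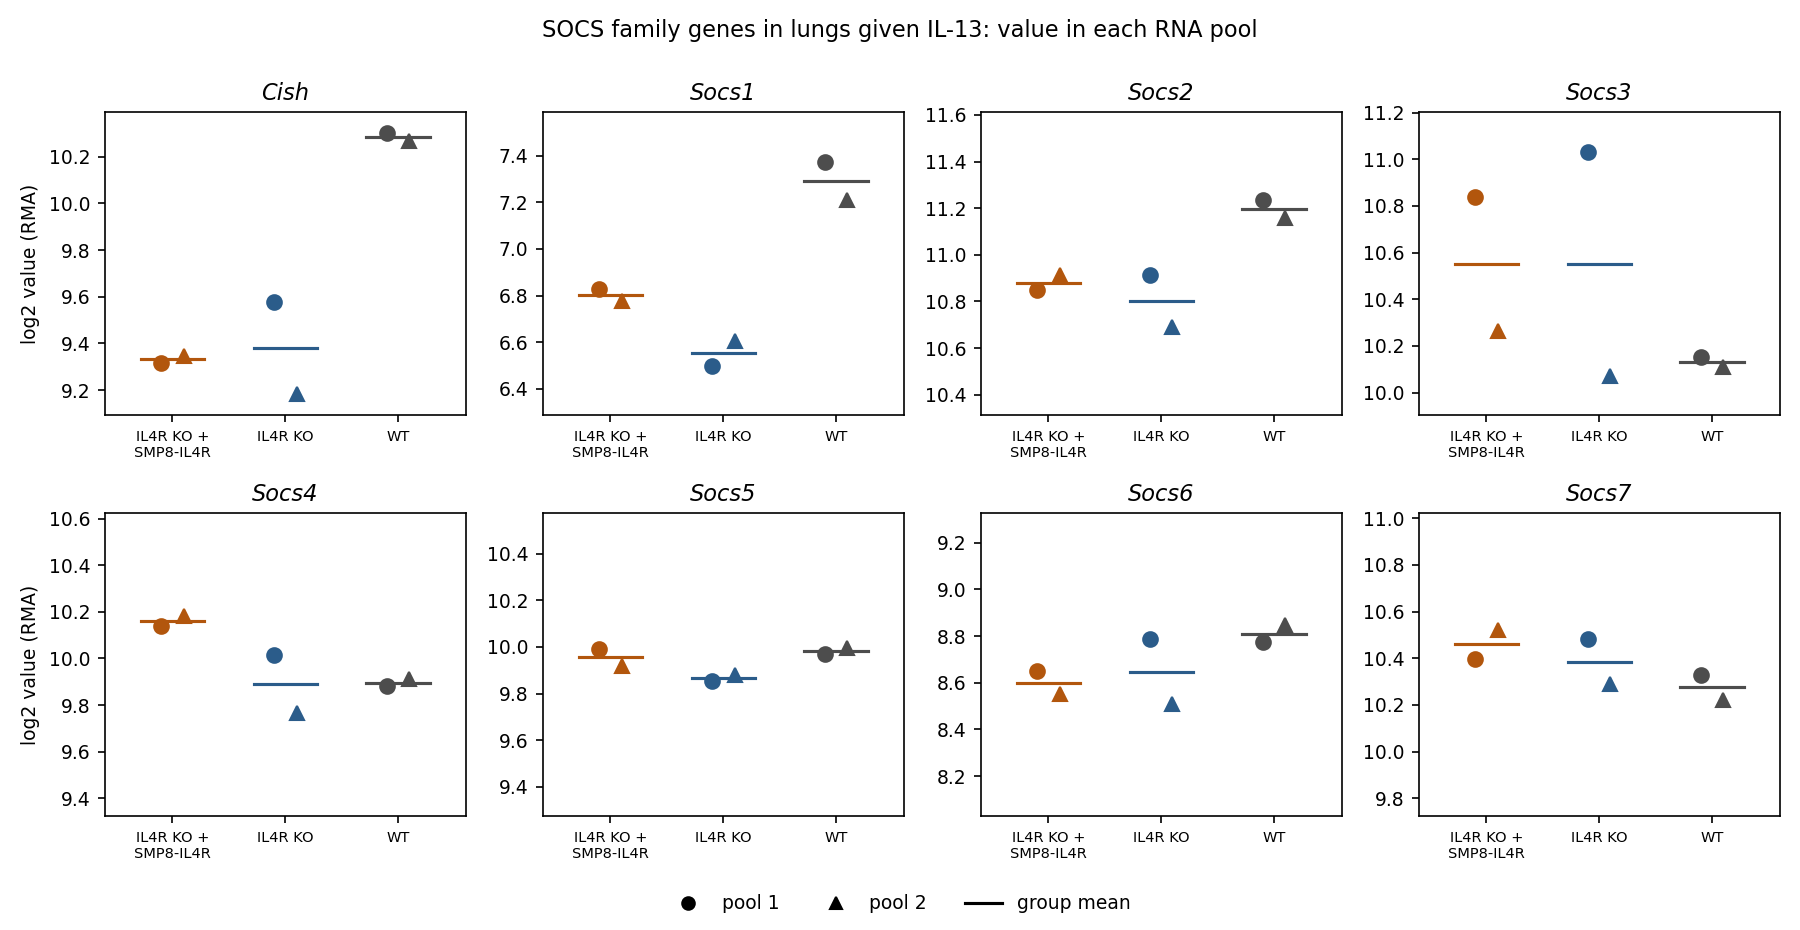
Each panel plots 1 family gene by its brightest probe set, with the RMA log2 value on the y axis and the genotypes on the x axis. Circles are pool 1, triangles pool 2 and lines group means. For Cish the 4 IL4R -/- pools lie between 9.18 and 9.58, below the WT pools at 10.30 and 10.27, and Socs3 is split by pool within both IL4R -/- genotypes.

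Socs2 restrains growth hormone signalling. Its brightest probe set, 1418507_s_at, had log2 values of 10.85 and 10.91 in transgenic lungs, 10.91 and 10.69 in IL4R KO lungs, and 11.23 and 11.16 in WT lungs. WT lay above both other genotypes, which overlapped each other. The difference was -0.39 for IL4R KO minus WT (SE 0.09, limma adjusted p = 0.0741) and -0.31 for transgenic minus WT (SE 0.09, limma adjusted p = 0.156), and neither passed. Without IL4R KO pool 1 the IL4R KO difference was -0.51 and passed (limma adjusted p = 0.0179) in a fit where 1519 genes passed, against 557 with all arrays. Without either IL4R KO pool the transgenic difference passed (limma adjusted p = 0.0376) among 910 genes, against 337 with all arrays. Without both arrays of high hepatocyte transcripts, 1 IL4R KO and 1 WT array remained, and IL4R KO minus WT was -1.12 for Cish, -0.77 for Socs1 and -0.54 for Socs2. The 1 residual degree of freedom of that fit comes from the transgenic pools, so no call is drawn from it.

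The probe sets of Socs2 had the same sign in IL4R KO minus WT and mixed signs in transgenic minus WT. All 6 were lower in IL4R KO than in WT lungs, by differences of -0.39 to -0.12, and IL4R KO pool 2 was the lowest array in 5 of the 6. In transgenic minus WT they ran from -0.31 to 0.16, with 1418507_s_at and 1449109_at below 0 and the other 4 above it. Probe set 1449109_at, the next in brightness, gave 10.61 and 10.74 in transgenic lungs, 10.76 and 10.57 in IL4R KO lungs, and 10.98 and 10.87 in WT lungs. Its genotypes were ordered as in the brightest probe set, with both WT pools on top. None of the 6 passed over all probe sets in any comparison.

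**Figure D2:**
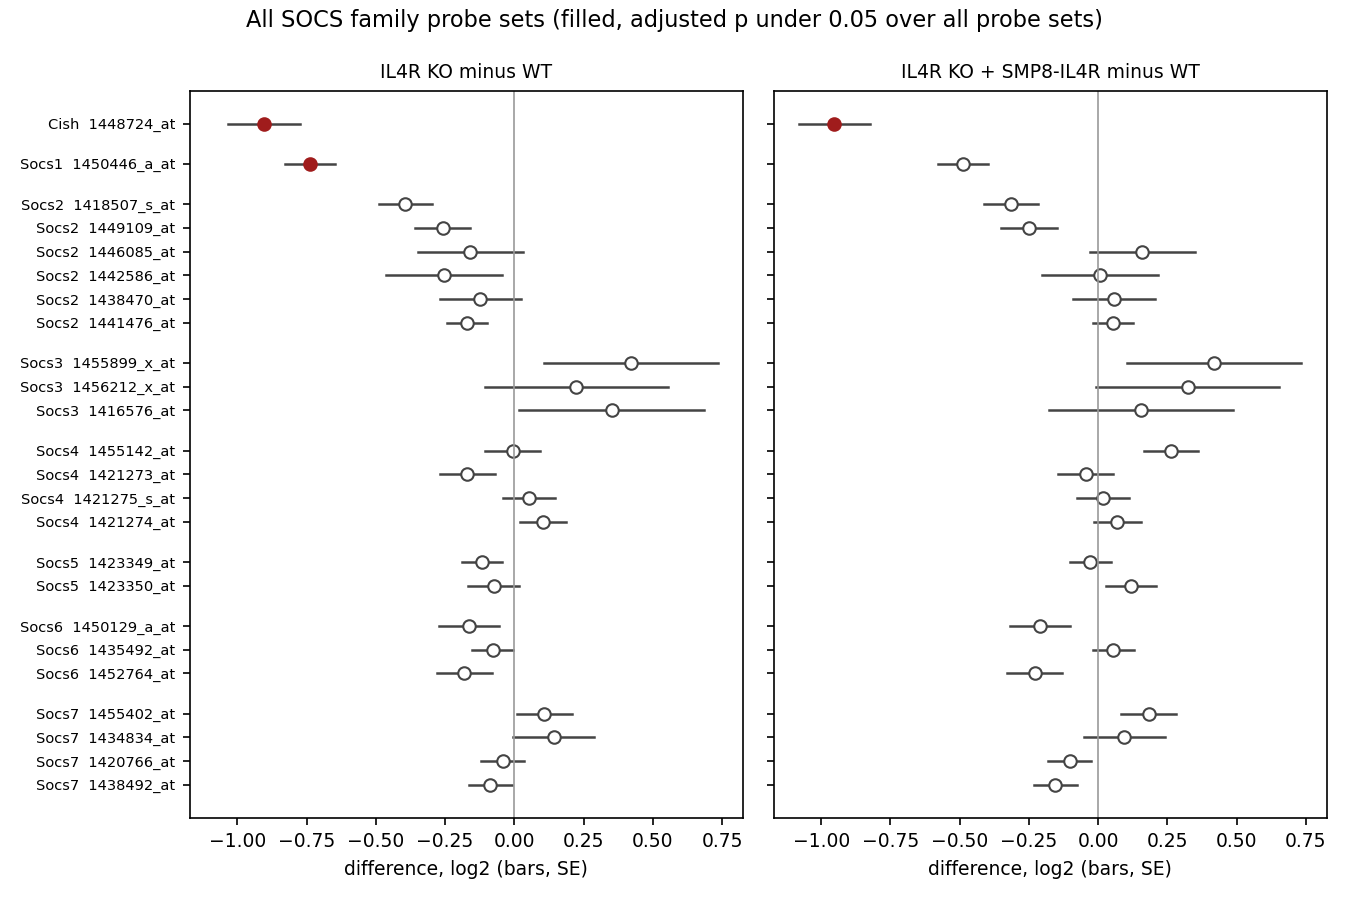
Points are the differences of IL4R KO minus WT (left) and transgenic minus WT (right) for each of the 24 family probe sets on the log2 scale, with bars of 1 SE from limma. Filled points passed over all probe sets. All 6 Socs2 probe sets lie below 0 on the left, with values down to -0.39, and 2 of them do so on the right.

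The comparison of transgenic with IL4R KO lungs, in which the design differs by the receptor in smooth muscle, gave no family gene past the threshold (limma). Among all 11861 genes 0.101% passed. Unadjusted limma p-values were under 0.05 for Socs1 (0.0224) and Socs4 (0.0275), as they were for 12.4% of all genes tested. The family median was 0.08 and that of all genes tested -0.0047. The pools of the genotypes did not overlap for 3 members, Socs1, Socs4 and Socs5, all higher in transgenic lungs, against 41.7% of all genes without overlap and 21.1% with the transgenic pools higher. In the same comparison 4 of 9 smooth muscle genes rose, among them the smooth muscle actin Actg2 by 1.48 (limma adjusted p = 0.00473), which had 11.38 and 11.39 in transgenic lungs, 9.88 and 9.93 in IL4R KO lungs, and 10.89 and 10.95 in WT lungs. Whole lung RNA mixes all cell types, and fewer cells of a type cannot be told apart from less RNA per cell.

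Transgenic lungs set against WT lungs had 2 family genes past the threshold, Cish and Socs1, both lower, against 2.84% of all genes tested and 2.15% passing as lower. Socs1 was tested through the WT pools where it was high, and its call was lost without the filter on dim genes (limma adjusted p = 0.0553). The family median was -0.12 and that of all genes 0.03. The pools of the genotypes did not overlap for 7 of the 8 members, a separation that 61.7% of all genes also showed. Of these 7, Cish, Socs1, Socs2 and Socs6 were lower and Socs3, Socs4 and Socs7 higher in transgenic lungs.

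**Figure D3:**
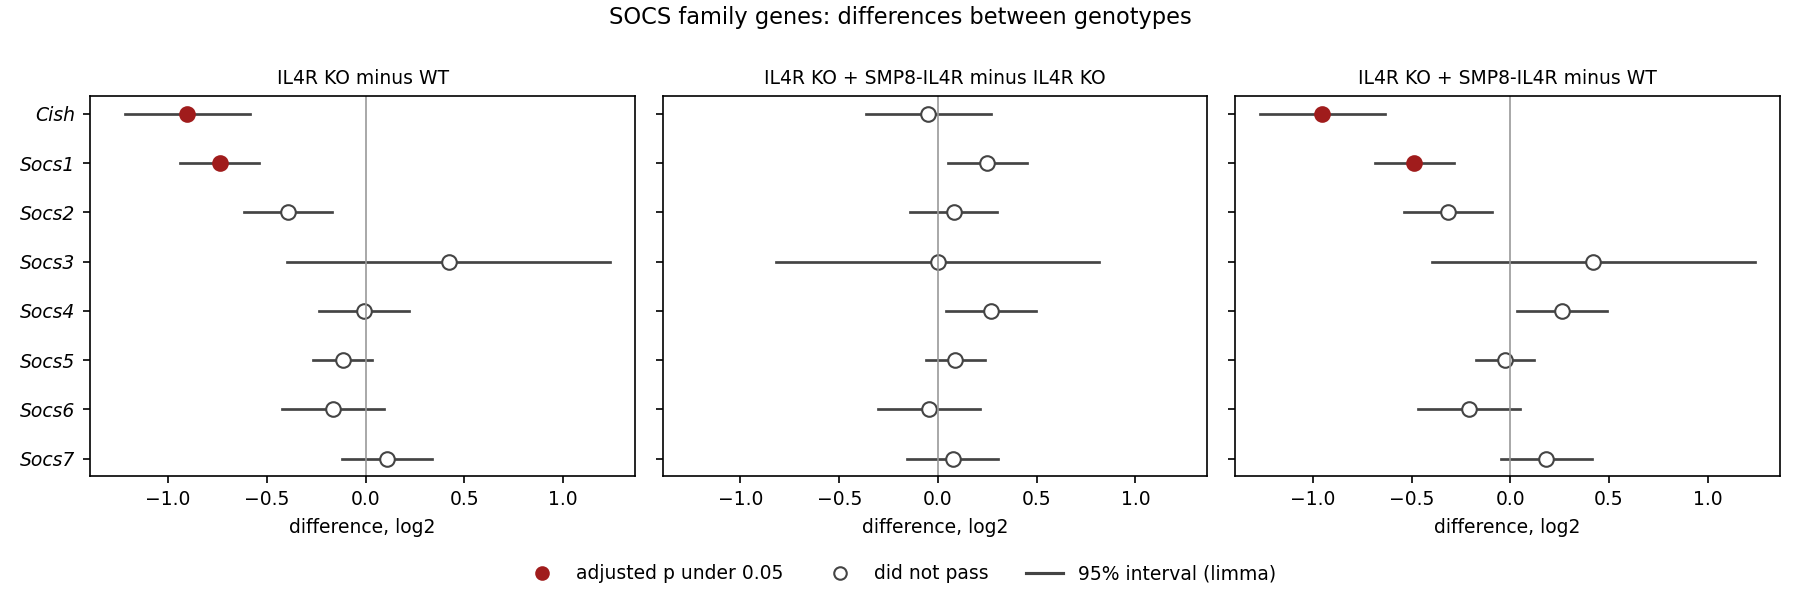
Points are log2 differences of the 8 family genes in each comparison and lines are 95% intervals from limma. Filled points passed at an adjusted p under 0.05. Cish and Socs1 pass in both comparisons against WT (-0.90 and -0.74 for IL4R KO, -0.95 and -0.49 for transgenic lungs), no gene passes in transgenic minus IL4R KO, and the interval of Socs3 is the widest.

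Socs3, the feedback inhibitor of gp130 cytokines such as IL-6 and of the G-CSF receptor, differed more between the pools of each IL4R -/- genotype than between the genotype means, while its WT pools lay close together. Its brightest probe set, 1455899_x_at, had log2 values of 10.84 and 10.26 in transgenic lungs, 11.03 and 10.07 in IL4R KO lungs, and 10.15 and 10.11 in WT lungs. Pool 1 was high in both IL4R -/- genotypes, and the other 4 pools lay between 10.07 and 10.26. Probe set 1416576_at, which lacks the ending that marks possible binding of related transcripts, gave 9.67 and 9.02 in transgenic lungs, 10.04 and 9.04 in IL4R KO lungs, and 9.16 and 9.22 in WT lungs. Probe set 1456212_x_at gave 10.38 and 9.67 in transgenic lungs, 10.40 and 9.45 in IL4R KO lungs, and 9.74 and 9.66 in WT lungs. All 3 probe sets were thus highest in IL4R KO pool 1, with transgenic pool 1 next.

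Neither difference of Socs3 from WT passed. IL4R KO minus WT was 0.42 (SE 0.33, 95% interval -0.40 to 1.24, limma adjusted p = 0.502), and leaving out IL4R KO pool 1 gave -0.06 whereas leaving out pool 2 gave 0.90. Transgenic minus WT was also 0.42 (SE 0.33, limma adjusted p = 0.558), and it was 0.13 without transgenic pool 1 and 0.71 without transgenic pool 2. Transgenic minus IL4R KO was -0.0016, with an interval of -0.82 to 0.82. With the mean of the Y-linked genes as a covariate, which sets IL4R KO pool 2 apart, IL4R KO minus WT was 0.86, near the value without that pool, and passed (limma adjusted p = 0.0406) in a fit where 1131 genes passed.

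The mean of the neutrophil markers moved with Socs3 across the pools, though not every marker did. The mean log2 value of 6 neutrophil genes, of 8 listed, was 10.97 and 9.14 in transgenic lungs, 10.55 and 9.46 in IL4R KO lungs, and 8.98 and 9.22 in WT lungs. The calgranulin gene S100a8 had 13.59 and 10.56 in transgenic lungs, 12.56 and 11.08 in IL4R KO lungs, and 10.25 and 10.88 in WT lungs. The neutrophil collagenase gene Mmp8 gave 9.44 and 6.54 in transgenic lungs, 9.16 and 6.90 in IL4R KO lungs, and 6.31 and 6.66 in WT lungs. As with Socs3, pool 1 was the high one in both IL4R -/- genotypes.

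Pool 1 exceeded pool 2 in both IL4R -/- genotypes for 5 of 6 neutrophil genes (83.3%), 8 of 13 immediate early genes (61.5%) and 8 of 15 other STAT target genes (53.3%), against 17.4% of all genes tested. Immediate early genes, which many stimuli switch on within minutes, averaged 9.93 and 9.73 in transgenic lungs, 10.34 and 9.80 in IL4R KO lungs, and 9.98 and 9.92 in WT lungs. The hepatocyte mean given above was high in IL4R KO pool 1 but not in transgenic pool 1. The part of these transcripts in the Socs3 values was not tested. With both arrays of high neutrophil markers left out, a choice made after the marker values were seen, the Socs3 difference of IL4R KO minus WT was -0.06, that of Cish -1.10, that of Socs2 -0.51 and that of Socs6 -0.30. In that fit Cish, Socs1, Socs2 and Socs6 passed as lower, while 2093 of all genes passed, against 557 with all arrays, and its 1 residual degree of freedom comes from the WT pools.

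**Figure D4:**
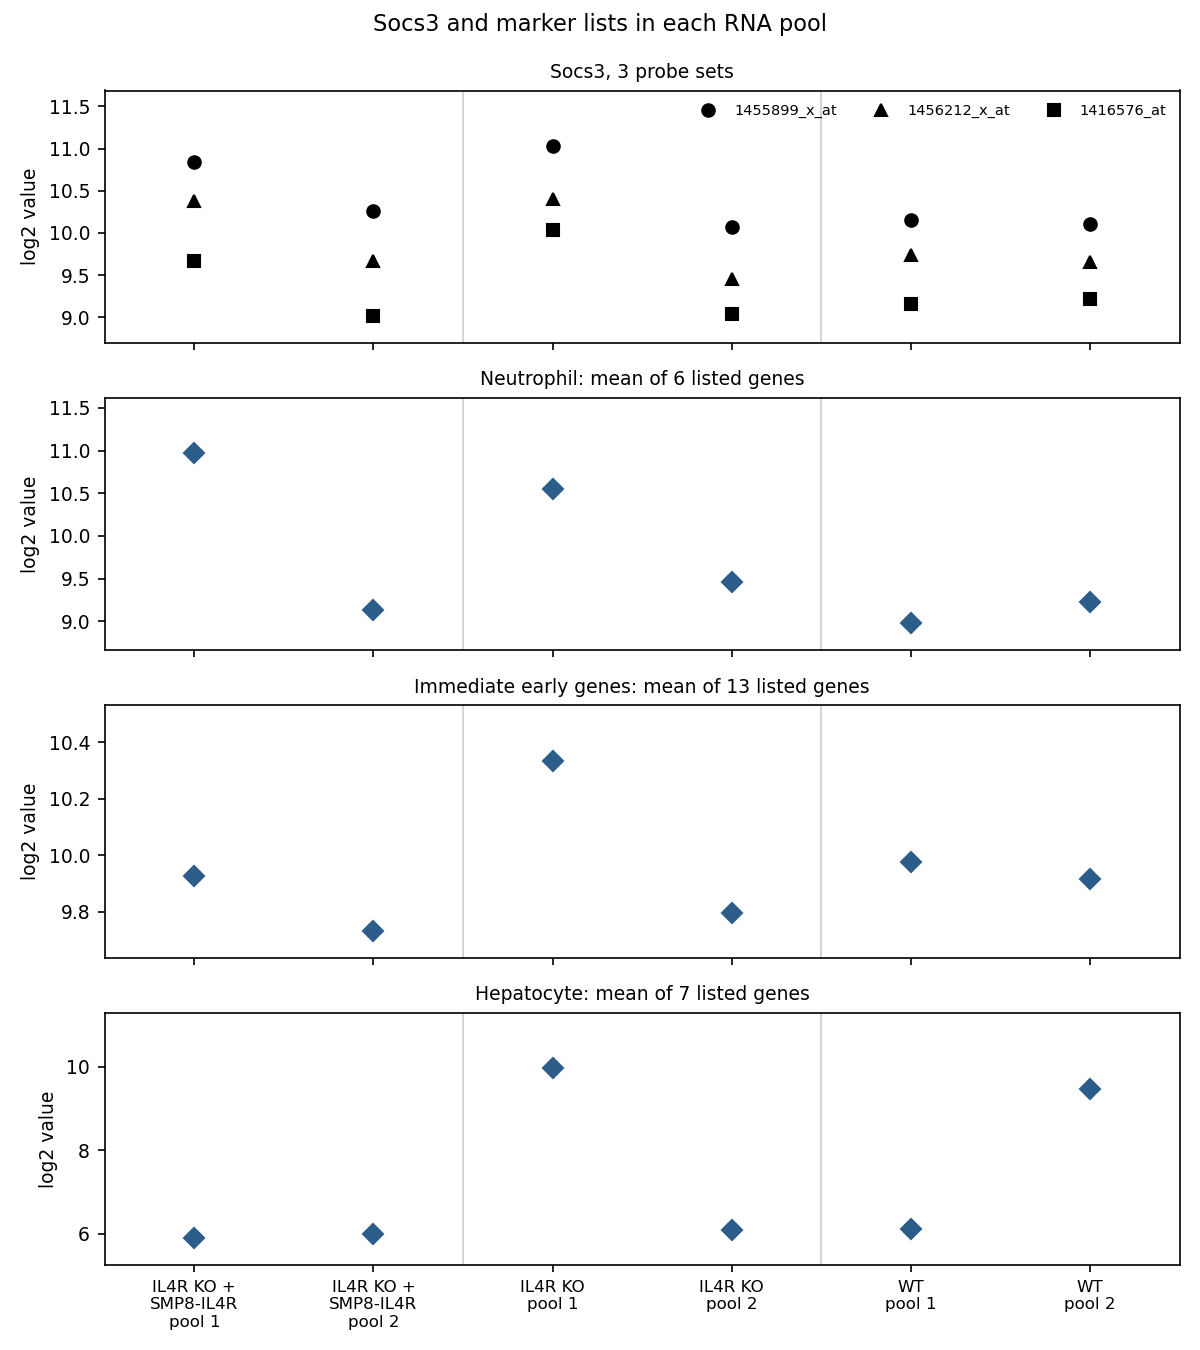
The upper panel plots the log2 value of the 3 Socs3 probe sets in each pool, and the other panels plot the mean log2 value of 6 neutrophil, 13 immediate early and 7 hepatocyte genes in the same pools. Socs3 and the neutrophil mean are both highest in transgenic pool 1 and IL4R KO pool 1, where the neutrophil mean is 10.97 and 10.55.

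Socs4 and Socs5 have long amino-terminal regions and are known for restraining epidermal growth factor receptor signalling, and SOCS5 was reported to bind the IL-4 receptor in mouse T cells. The brightest Socs4 probe set, 1455142_at, had 10.14 and 10.18 in transgenic lungs, 10.01 and 9.77 in IL4R KO lungs, and 9.88 and 9.91 in WT lungs. Both transgenic pools lay above the other 4. The difference was 0.27 for transgenic minus IL4R KO (interval 0.04 to 0.50, limma adjusted p = 0.344) and 0.26 for transgenic minus WT (interval 0.04 to 0.49, limma adjusted p = 0.227), and neither passed. Without either IL4R KO pool the transgenic minus WT difference of Socs4 passed (limma adjusted p = 0.0423). The other 3 Socs4 probe sets were dim, between 3.45 and 6.25, and transgenic minus WT ran from -0.05 to 0.07 in them.

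Socs5 had the narrowest range over the 6 arrays among the brightest probe sets of the family, 0.143, with 9.99 and 9.92 in transgenic lungs, 9.85 and 9.88 in IL4R KO lungs, and 9.97 and 10.00 in WT lungs by probe set 1423349_at. IL4R KO pools were below both other genotypes: IL4R KO minus WT was -0.12 (interval -0.26 to 0.03), and transgenic minus IL4R KO was 0.09 (interval -0.06 to 0.24). Its other probe set, 1423350_at, gave -0.07 and 0.19 in the same comparisons, so the signs were shared. The separation from WT was not, since its IL4R KO pools (9.64 and 9.84) overlapped its WT pools (9.81 and 9.82). Transgenic minus WT differed in sign, with -0.03 in 1423349_at and 0.12 in 1423350_at. None of these differences passed in the limma fits.

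Socs6 and Socs7 are known for binding insulin receptor substrates and damping insulin signalling. Socs6, by probe set 1450129_a_at, had 8.65 and 8.55 in transgenic lungs, 8.79 and 8.51 in IL4R KO lungs, and 8.77 and 8.85 in WT lungs. IL4R KO pools overlapped WT pools, and transgenic minus WT was -0.21 (interval -0.47 to 0.05, limma adjusted p = 0.364). The other Socs6 probe sets gave transgenic minus WT differences of 0.05 and -0.23, so the probe sets of this gene differed in sign, though 1452764_at, at -0.23, is dim (5.91 to 6.28). Socs7, by probe set 1455402_at, had 10.40 and 10.52 in transgenic lungs, 10.48 and 10.29 in IL4R KO lungs, and 10.33 and 10.22 in WT lungs. Transgenic pools lay above WT pools, by 0.18 (interval -0.05 to 0.41, limma adjusted p = 0.372), and the other Socs7 probe sets ran from -0.15 to 0.09, with both dim ones, 1420766_at and 1438492_at, below 0. Insulin receptor substrate genes themselves did not pass: Irs2 was higher in IL4R KO than in WT lungs by 0.53 (limma adjusted p = 0.150) and Irs1 differed by -0.17.

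The tested signalling components around the family gave no call. Of the receptor chains (2 tested), Janus kinases (4), STAT factors (6), other JAK-STAT inhibitors such as phosphatases and PIAS proteins (12), ligase subunits that bind the SOCS box (5) and other proteins with a SOCS box (9), none passed in any of the 3 comparisons. Of 4 receptor chains listed, 3 had a probe set and 2 were tested after the filter on dim genes. The mean log2 value of the 3 receptor chains was 8.26 and 8.35 in transgenic lungs, 8.05 and 8.08 in IL4R KO lungs, and 8.58 and 8.67 in WT lungs. The WT pools were highest in this mean, but both tested chains were highest in the transgenic pools, Il4ra by its brightest probe set. Il13ra1 gave 9.43 and 9.35 in transgenic lungs, 9.20 and 9.12 in IL4R KO lungs, and 9.18 and 9.31 in WT lungs. WT thus exceeded transgenic lungs in the mean through the chain too dim to be tested, which the absence of calls does not cover. Stat6, the main IL-13 effector, was higher in IL4R KO than in WT lungs by 0.21 (limma adjusted p = 0.107). The phosphatase gene Ptpn11 differed by 0.20 (limma adjusted p = 0.149) and the SOCS box scaffold Cul5 by -0.16 (limma adjusted p = 0.275) in the same comparison.

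Among 5 tested ligands that can induce SOCS genes, of 15 listed, Igf1 was lower in both comparisons against WT. Igf1, the growth factor made in response to growth hormone, had 9.41 and 9.51 in transgenic lungs, 8.96 and 8.92 in IL4R KO lungs, and 10.29 and 10.14 in WT lungs. The genotypes kept the order seen for Socs1, with no overlap. Its difference was -1.27 for IL4R KO minus WT (limma adjusted p = 0.0012) and -0.76 for transgenic minus WT (limma adjusted p = 0.00838), while transgenic minus IL4R KO was 0.52 and did not pass (limma adjusted p = 0.167). Csf2, which encodes GM-CSF, differed by -0.52 in IL4R KO minus WT (limma adjusted p = 0.0506). Of 16 tested receptors that signal through STATs, the GM-CSF receptor gene Csf2ra alone passed, with a difference of -0.54 for IL4R KO minus WT (limma adjusted p = 0.0309), with 10.16 and 9.93 in transgenic, 9.80 and 9.79 in IL4R KO, and 10.30 and 10.36 in WT lungs.

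Of other genes downstream of STATs, the STAT6 response genes of myeloid cells passed most often. None of 15 cytokine-induced STAT target genes, among them Pim1 (-0.27 in IL4R KO minus WT, limma adjusted p = 0.199) and Bcl6, passed in any comparison, and their median was -0.04 in IL4R KO minus WT, -0.08 in transgenic minus IL4R KO and -0.05 in transgenic minus WT. Of 9 interferon-induced genes tested, Cxcl9 alone passed, higher in transgenic than in WT lungs by 2.82 (limma adjusted p = 0.0383), with 9.50 and 8.34 in transgenic, 7.95 and 6.91 in IL4R KO, and 6.11 and 6.09 in WT lungs. In all, 11 of 12 genes that STAT6 switches on in myeloid cells passed as lower in IL4R KO than in WT lungs, with a median of -1.92. In transgenic lungs 10 of 12 passed as lower than in WT, with a median of -1.62. Of all genes tested 2.77% and 2.15% passed as lower in these comparisons, and the list was chosen with earlier results known. Pdcd1lg2 (5.71 to 5.83 in IL4R -/- pools, 7.66 and 7.99 in WT) and Batf3 were tested only through the WT pools, where they were high. The median of the 12 genes in transgenic minus IL4R KO was -0.0021, and none passed. The chemokine gene Ccl17 had 7.42 and 7.17 in transgenic lungs, 7.01 and 7.07 in IL4R KO lungs, and 9.85 and 10.14 in WT lungs, a difference of -2.96 for IL4R KO minus WT (limma adjusted p = 0.00037).

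Markers of several cell types moved in the same comparison as Cish and Socs1. In IL4R KO minus WT 4.7% of all genes tested passed, and 2.77% passed as lower. All 10 goblet and mucous genes were lower in IL4R KO than in WT lungs. Their list means were 6.82 and 6.92 in transgenic, 7.05 and 7.00 in IL4R KO, and 10.69 and 10.69 in WT lungs. Among them Clca1 (3.91 to 5.27 in IL4R -/- pools, 14.32 and 14.29 in WT), Retnlb and Muc5ac were tested only through the WT pools, where they were high. The filter on dim genes thus favoured a call of lower for these genes. Of 9 smooth muscle genes 6 were lower in IL4R KO than in WT lungs (median -0.47), with list means of 10.80 and 10.87 in transgenic, 10.06 and 10.08 in IL4R KO, and 10.65 and 10.61 in WT lungs. All 4 adipocyte genes tested were higher (median 1.59), with list means of 7.15 and 7.25 in transgenic, 7.97 and 8.12 in IL4R KO, and 6.74 and 6.88 in WT lungs. Of the markers of B and plasma cells 2 of 7 were higher, and of those of club cells 2 of 5. Of 10 macrophage genes 2 were higher and 2 lower, of 6 dendritic cell genes 1 was higher and 2 lower, and of 6 T cell genes none passed. Of 6 neutrophil genes 1, Ltf, was higher. The part of these markers in the Cish and Socs1 differences was not tested.

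**Figure D5:**
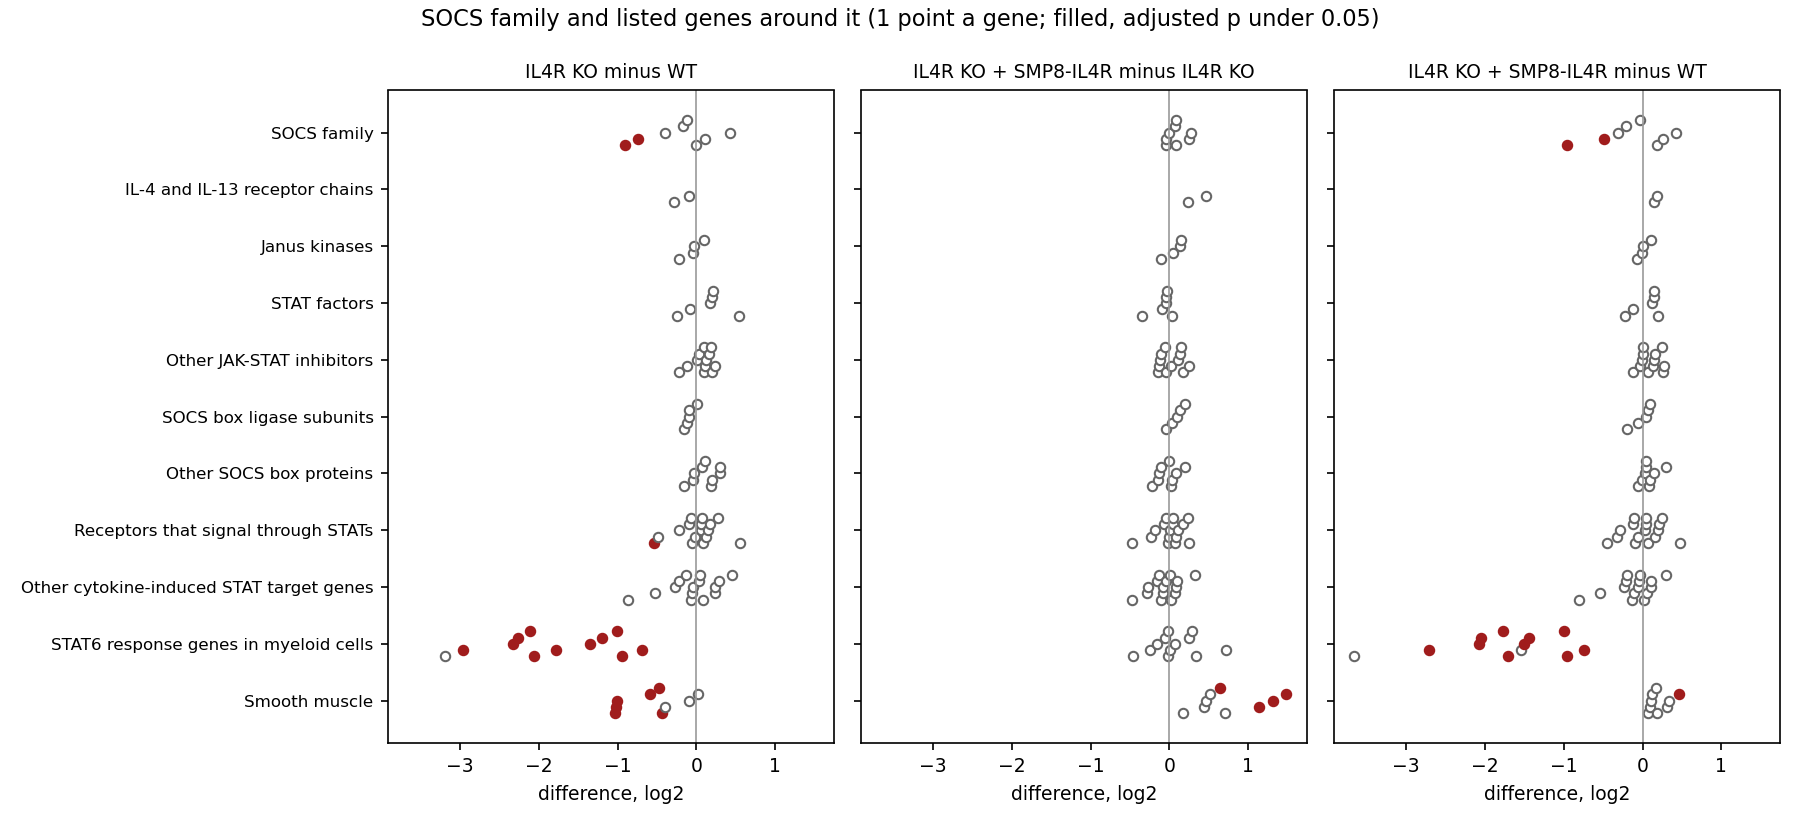
Each point is the log2 difference of 1 gene in the comparison named above the panel, with filled points for an adjusted p under 0.05 (limma). Of the family, Cish and Socs1 are filled in both comparisons against WT. STAT6 response genes lie far to the left in those panels (medians -1.92 and -1.62), and smooth muscle genes lie to the right in transgenic minus IL4R KO (median 0.65).

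Genes whose values across the 6 arrays were most like those of Cish were Gclc, which encodes the catalytic subunit of the enzyme that starts glutathione synthesis (Pearson r = 0.997), Pbld2 (0.992) and Sftpd, which encodes surfactant protein D (0.992). Gclc had 11.19 and 11.16 in transgenic lungs, 11.37 and 10.98 in IL4R KO lungs, and 12.13 and 12.03 in WT lungs. Because Gclc was picked for its likeness to Cish, its sharing of the Cish pattern, with the higher pool 1 within IL4R KO lungs, follows from the selection. Most like Socs1 were the transferrin receptor gene Tfrc (0.993), the acyltransferase gene Mboat2 (0.992) and Oxct1, which encodes an enzyme of ketone body use (0.992). Mboat2 had 8.06 and 8.07 in transgenic lungs, 7.94 and 8.01 in IL4R KO lungs, and 8.25 and 8.21 in WT lungs. Its order of genotypes is that of Socs1, which likewise follows from the selection. These correlations are over 6 arrays of 3 genotypes, and 155 genes exceeded 0.95 with Cish and 124 with Socs1.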

How the data were processed

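Whole lung RNA was read on 6 arrays, 2 pools for each of 3 genotypes taken from the labels. The values are log2 intensities deposited by the authors after RMA (background correction, quantile normalisation and probe set summary), per the submitters' processing notes; neither its version nor a genome build is given in the sources used here. These values ran from 2.63 to 14.8, with quartiles of 5.30 and 8.98, and the number of arrays limits the precision.

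Of 45101 probe sets, 64 were array controls and not used. By the platform annotation 34945 had 1 gene, 932 several and 9160 none. A gene was represented by its brightest probe set and tested if 2 or more arrays exceeded 7.10, the overall median. Group means were fitted with limma 3.58.1 in R 4.3.3 on all 6 arrays (3 residual and 2.86 prior degrees of freedom), with Benjamini-Hochberg adjustment over all 11861 genes and a threshold of 0.05. All probe sets were also fitted without a filter. Intervals are limma's moderated 95% intervals, not adjusted for the number of genes. The fit was tested on simulated data.

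The family and all 31 lists were chosen with earlier results of these data known. All members were named with all probe sets. From every other list up to 3 genes of lowest p were eligible, and from likeness 3 genes for each passing member. Alternatives covered the filter, probe set choice, variance model, centring, the pool number as a block, hepatocyte and Y-linked covariates and arrays left out. Promoter sequences came from RefSeq (GRCm38.p6).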

Additional observations from a re-analysis of the deposited data

How the results depend on the processing

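Each comparison was repeated under 17 alternatives for genes and 15 for probe sets. No value that passed changed sign under any of them, and 33 gene values and 80 probe set values that did not pass did. Transgenic minus IL4R KO gave 0 family genes and 0 family probe sets under all of them. Each family count stands beside the number of all genes or probe sets that passed in the same fit. For IL4R KO minus WT, 2 family genes passed among 557, 1 among 503 with the stricter filter (Socs1 is then not tested), 1 among 300 with only the 4 arrays of both genotypes (Socs1), 4 among 2093 without both arrays of high neutrophil markers, and 0 to 3 with any 1 array left out, from 0 among 110 without WT pool 1 to 3 among 1519 without IL4R KO pool 1. For transgenic minus WT, 2 genes passed among 337, against 1 among 333 without a filter, 1 among 289 with the stricter filter, 1 among 441 with a robust intensity trend, 4 among 910 with only the 4 arrays, and 0 to 4 with any 1 array left out, 0 among 77 to 134 without a WT or transgenic pool and 4 among 910 without an IL4R KO pool. Of probe sets, 2 passed among 710 in IL4R KO minus WT, against 0 among 322 with only the 4 arrays, 1 among 865 without both arrays of high neutrophil markers and 0 to 3 with 1 array left out. In transgenic minus WT 1 passed among 470, against 2 among 1064 with only the 4 arrays, 2 among 1042 with the Y-linked covariate and 0 to 2 with 1 array left out. Where 1 pool is left out of a genotype, the remaining one is assumed to vary like the other genotypes, and the fit has fewer residual degrees of freedom.

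With the pool number as a replicate block, IL4R KO minus WT kept 2 genes and 2 probe sets, and transgenic minus WT had 1 gene (Socs1 adjusted p = 0.0714, limma) and 1 probe set. Differences of pool 1 minus pool 2 correlated across genes at 0.121 between transgenic and IL4R KO lungs. The correlation was -0.0875 between transgenic and WT lungs and -0.509 between IL4R KO and WT lungs. These values cannot settle whether the pool numbers pair the arrays, because hepatocyte transcripts were high in IL4R KO pool 1 and WT pool 2. Arrays have no depth. Of the 24 family probe sets 8 have means below the median of all values, where RMA compresses differences: that of Socs1, 3 of Socs4, 2 of Socs7 and 1 each of Socs2 and Socs6.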
